A study of Mus musculus with 24 samples.

Results

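The 10 genes described here are the NR4A nuclear receptors Nr4a1, Nr4a2 and Nr4a3 and 7 other immediate early genes, Fos, Fosb, Jun, Junb, Egr1, Atf3 and Ier2. They were chosen on their measured levels in these libraries, with young GFP against young sham mice among the contrasts used, and are 10 of 55385 genes counted. RNA came from the gastrocnemius, a calf muscle, of female C57BL/6J mice, and each of 6 groups held 4 mice. The study asked how muscle differs across the lifespan and whether Klotho, a circulating hormone that declines with age, alters old muscle. Young sham and young GFP mice were 3 to 6 months of age, old GFP and old AAV-Kl mice 21 to 24 months, and oldest-old GFP and oldest-old AAV-Kl mice 27 to 29 months. GFP and AAV-Kl mice received an adeno-associated virus of serotype 8 by the tail vein, 3e8 vector genomes per mouse, 14 days before the muscle was studied. The virus carried green fluorescent protein or Klotho behind LP-1, a promoter active in liver, so the muscle itself was not the tissue targeted. The study's list of sequenced groups leaves out the sham mice, and their age here is the one it gives for young mice. What the sham mice underwent is not given in the sources used here, so virus, injection and handling cannot be told apart between young GFP and young sham mice. Between 36415886 and 59733985 reads per library fell on genes. CPM below are counts scaled to a common library size. Summed CPM of 8 muscle fibre markers, most abundant Myh4, lay between 98960 and 147400 in the 24 libraries, as the labelled tissue would give.

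Immediate early genes are transcribed without new protein synthesis, so their RNA appears soon after a cell is stimulated and is short-lived. Many encode transcription factors, and in muscle they respond to contraction, growth factors, hormones and injury. NR4A receptors are orphan nuclear receptors that beta-adrenergic signalling and exercise induce in muscle. Per kilobase of exon, Nr4a1 had the highest mean level over the 24 libraries, 91.3 CPM per kb, followed by Jun (32.3), Junb (28.2), Fos (28.2), Egr1 (16.2), Nr4a3 (11.1), Atf3 (10.6), Ier2 (8.19), Nr4a2 (4.20) and Fosb (1.73). Between the lowest and the highest library, levels differed 5.44-fold for Nr4a1 and 58.01-fold for Fosb, the extremes among the 10. All 10 passed the filter on low counts, and the lowest count of any was 28 reads, for Fosb in young sham mouse 1 and in young GFP mouse 4. Reads were counted without strand, so reads in stretches shared by Jun and its antisense neighbour Junos, by Junb and Prdx2, or by Atf3 and Gm24748 cannot be assigned. Such reads fall among the ambiguous ones, which were left out, so the counts of these genes may miss them. Junos had at most 711 reads in a library, Prdx2 at most 4262 and Gm24748 0, while Jun had at least 2406 and Junb at least 362.

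Several of the genes are known targets of cyclic AMP signalling. Promoters of the 10 genes were searched for TGACG, the core of the cyclic AMP response element, on both strands. RefSeq promoters (GRCm38.p6, 250 bases before to 50 after the start) matched 8 of the 10 genes. TGACG was in 7 of the 8, against 20.8% of 32851 promoters. Nr4a1, Nr4a2 and Nr4a3 had 4 copies each, and 0.231% of all promoters had 4 or more. Fos had 2 copies, Fosb, Junb and Atf3 had 1 each, and Jun had 0. TGACGTCA, which contains TGACG, was in 0 of the 8 and in 1.79% of all. The AP-1 motif TGANTCA (7.81% of all), the NR4A motif AAAGGTCA (1.51%) and the CArG box bound by serum response factor (1.63%) were also in 0 of the 8. The EGR motif GCGNGGGCG was in 3, Nr4a1, Nr4a2 and Fosb, and in 5.55% of all. A match is a description of letters in this window, and whether it bears on the levels was not tested. Shown are Nr4a3 (chr4:48045055-48045354, plus strand), whose pattern over the groups differed from the other genes, its relative Nr4a1 (chr15:101266596-101266895, plus strand), and Fos (chr12:85473640-85473939, plus strand) and Junb (chr8:84978699-84978998, minus strand), which were high in oldest-old GFP mice. Capitals mark TGACG on either strand.
Nr4a3: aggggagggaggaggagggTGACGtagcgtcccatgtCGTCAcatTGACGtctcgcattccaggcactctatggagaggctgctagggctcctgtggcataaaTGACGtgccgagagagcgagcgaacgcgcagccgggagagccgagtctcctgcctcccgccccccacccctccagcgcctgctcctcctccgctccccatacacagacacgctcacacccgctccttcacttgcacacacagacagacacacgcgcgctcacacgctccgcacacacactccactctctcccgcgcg
Nr4a1: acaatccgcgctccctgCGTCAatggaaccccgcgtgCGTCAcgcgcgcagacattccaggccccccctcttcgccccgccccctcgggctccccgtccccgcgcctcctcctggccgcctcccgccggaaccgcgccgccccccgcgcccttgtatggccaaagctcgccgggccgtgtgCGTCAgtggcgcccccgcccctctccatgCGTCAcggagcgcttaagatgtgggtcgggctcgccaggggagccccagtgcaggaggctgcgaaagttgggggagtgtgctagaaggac
Fos: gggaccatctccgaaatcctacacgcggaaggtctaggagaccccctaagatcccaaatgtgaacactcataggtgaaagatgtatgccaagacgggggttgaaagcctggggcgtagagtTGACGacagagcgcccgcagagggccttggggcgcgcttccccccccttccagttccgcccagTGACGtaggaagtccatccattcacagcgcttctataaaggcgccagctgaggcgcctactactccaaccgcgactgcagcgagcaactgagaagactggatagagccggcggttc
Junb: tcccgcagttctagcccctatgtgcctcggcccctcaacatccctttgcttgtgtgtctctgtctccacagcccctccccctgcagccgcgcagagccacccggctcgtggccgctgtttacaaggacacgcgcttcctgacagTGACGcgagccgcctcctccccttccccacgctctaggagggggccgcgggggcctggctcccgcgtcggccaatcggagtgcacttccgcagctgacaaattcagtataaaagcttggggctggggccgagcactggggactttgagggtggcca

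Nr4a3 (ENSMUSG00000028341.9, chr4:48045153-48086447, plus strand) had its highest levels in young GFP mice. In young sham mice 1 to 4 it was at 24.3, 22.2, 20.6 and 44.03 CPM, and in young GFP mice at 162, 168, 158 and 229 CPM. All 4 young GFP libraries lay above the other 20 libraries. Old GFP mice had 19.05, 54.1, 99.3 and 73.96 CPM, and old AAV-Kl mice 59.8, 39.6, 17.2 and 31.1 CPM. Oldest-old GFP mice had 11.9, 17.8, 17.1 and 39.5 CPM, overlapping the young sham mice. Oldest-old AAV-Kl mice, at 64.5, 63.7, 61.6 and 96.7 CPM, were all above the oldest-old GFP mice. Between young GFP and young sham mice the log2 fold change was 2.69 (SE 0.44), with means of 179 ± 33.4 and 27.8 ± 10.9 CPM (SD, n = 4). The genes were chosen with this contrast in view, so it is a description and no test is given. In the same contrast the log2 fold change of Fosb was -2.31, of Fos -1.28, of Junb 0.62, of Nr4a2 0.31 and of Nr4a1 -0.18, and in these 5 the groups overlapped. With 1 library left out in turn, Nr4a3 ranged from 2.57 to 3.02, Fosb from -2.83 to -1.34 and Fos from -1.68 to -0.98. Junb ranged from 0.030 to 0.92 and Nr4a1 from -0.36 to -0.003. The call at an adjusted p under 0.05 took in 1 of the 10 genes and 0.472% of 17803 tested, and 2 of the 10, Nr4a3 and Jun, had groups that did not overlap, against 9.76% of all. Nothing is read from these counts.

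**Figure D1:**
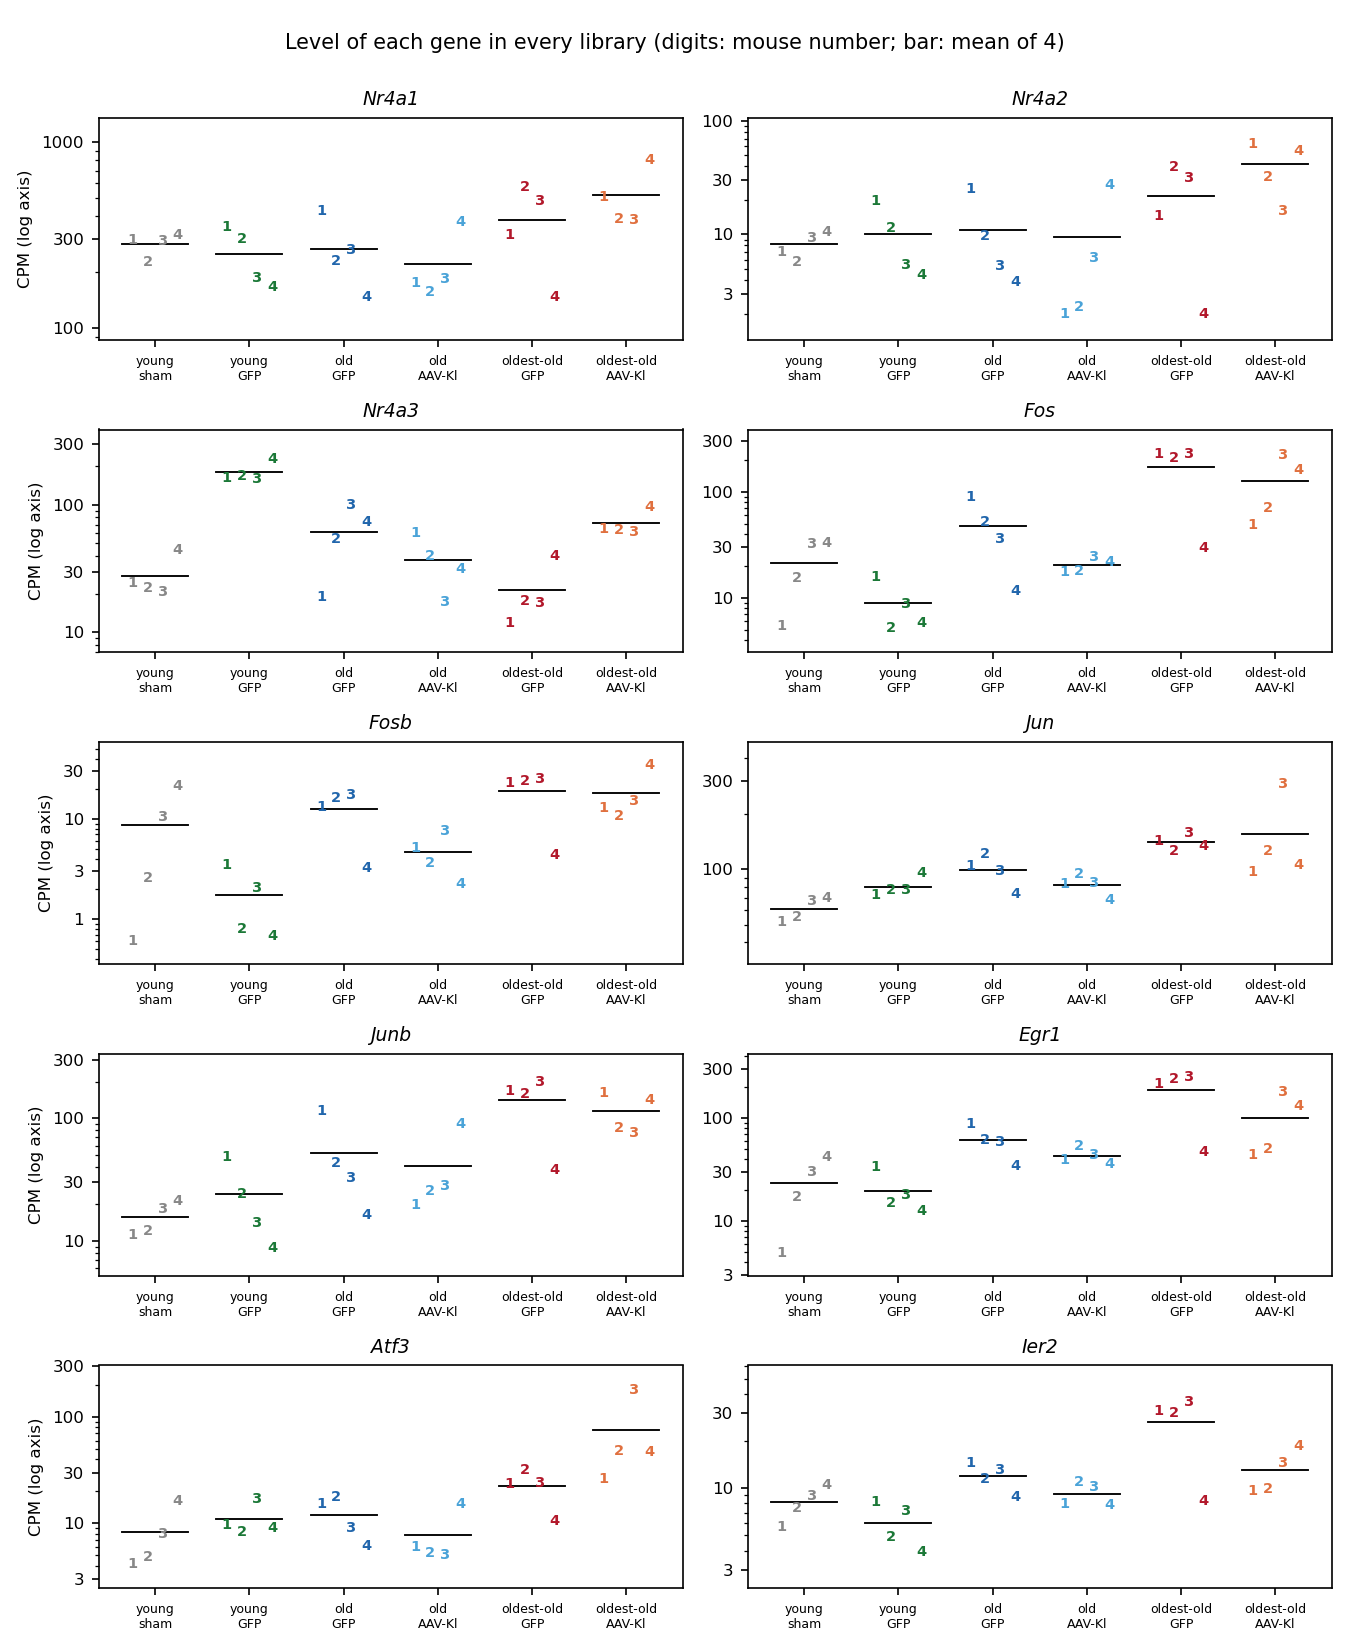
Level of each of the 10 genes in CPM on a log axis, by group, with each digit 1 library by its mouse number and each bar the mean of 4. Nr4a3 is highest in the young GFP mice (158 to 229 CPM), and Fos, Junb, Egr1 and Ier2 are higher in oldest-old GFP mice 1 to 3 than in mouse 4.

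Mean levels of the AP-1 subunits were higher in oldest-old GFP mice than in both young groups. Fos was at 5.48, 15.3, 32.5 and 32.9 CPM in young sham mice 1 to 4 and at 15.7, 5.21, 8.69 and 5.84 CPM in young GFP mice. It was at 89.8, 52.2, 35.7 and 11.6 CPM in old GFP and at 226, 207, 228 and 29.2 CPM in oldest-old GFP mice. Oldest-old GFP mouse 4 was far below the other 3 of its group, though above all young GFP mice. Its partner Jun was at 51.7, 55.04, 67.03 and 69.8 CPM in young sham and 72.5, 76.8, 77.4 and 94.9 CPM in young GFP mice. Old GFP mice had 105, 122, 97.9 and 73.02 CPM and oldest-old GFP mice 142, 126, 158 and 135 CPM. For Jun, mouse 4 lay with its group, and all oldest-old GFP libraries were above all young and old GFP libraries. Junb had 11.3, 12.1, 18.1 and 21.1 CPM in young sham and 48.8, 24.4, 14.1 and 8.74 CPM in young GFP mice. Its levels were 114, 43.5, 32.8 and 16.3 CPM in old GFP and 168, 158, 199 and 38.1 CPM in oldest-old GFP mice. Young GFP mouse 1 and oldest-old GFP mouse 4 made these groups overlap. Fosb, the least abundant per length, was at 0.601, 2.56, 10.4 and 21.3 CPM in young sham and 3.46, 0.796, 2.05 and 0.676 CPM in young GFP mice. It was at 13.2, 16.3, 17.2 and 3.27 CPM in old GFP and 22.8, 23.9, 24.9 and 4.35 CPM in oldest-old GFP mice. Its young sham mice overlapped all 3 of the other groups.

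Egr1, a zinc finger transcription factor, was at 4.92, 17.1, 29.9 and 41.4 CPM in young sham and 33.2, 15.002, 17.7 and 12.5 CPM in young GFP mice. It was at 88.3, 61.5, 58.9 and 34.1 CPM in old GFP and 215, 243, 250 and 46.4 CPM in oldest-old GFP mice. All oldest-old GFP libraries were above all 8 young libraries, mouse 4 by little. Ier2, a small nuclear protein, was at 5.69, 7.45, 8.92 and 10.5 CPM in young sham and 8.22, 4.92, 7.12 and 3.91 CPM in young GFP mice. Old GFP mice had 14.4, 11.5, 13.2 and 8.84 CPM and oldest-old GFP mice 31.1, 30.1, 35.7 and 8.35 CPM. Both older groups were above young GFP mice, and both overlapped young sham mice. Atf3, a stress-induced factor of the ATF/CREB family, ranged from 4.17 to 179 CPM. Its group means ran from 7.84 ± 4.88 CPM in old AAV-Kl to 75.01 ± 70.1 CPM in oldest-old AAV-Kl mice (SD, n = 4). Nr4a1 ranged from 146 to 797 CPM and Nr4a2 from 1.98 to 63.4 CPM, and for both the lowest library was oldest-old GFP mouse 4 and the highest was from an oldest-old AAV-Kl mouse.

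The young GFP libraries are part of the contrast used in choosing the genes, so the 10 genes are described against them and no p is given. From young GFP to oldest-old GFP mice the log2 fold change was 4.28 (SE 0.72) for Fos, 3.43 (SE 0.84) for Fosb, 2.55 (SE 0.63) for Junb and 0.80 (SE 0.25) for Jun. It was 3.26 (SE 0.60) for Egr1, 2.12 (SE 0.34) for Ier2 and -3.05 (SE 0.45) for Nr4a3. For Nr4a1, Nr4a2 and Atf3 it was 0.60, 1.10 and 1.02. With 1 library left out in turn, Fos ranged from 4.09 to 4.69, Jun from 0.72 to 0.88 and Nr4a3 from -3.55 to -2.87. Groups did not overlap for 6 of the 10, against 18.4% of all genes. The edgeR call at an adjusted p under 0.05 took in 7 of the 10 and 14.9% of all genes, 8.8% called higher. Neither count is read further. The median log2 fold change of the 10 was 1.61, against 0.027 over all genes.

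The young sham libraries are the other side of that contrast, so the 10 genes are also only described against them and no p is given. The edgeR call at an adjusted p under 0.05 took in 5 of the 10, all higher, and 11.6% of all genes, 7.07% called higher. This count is not read further. With the same oldest-old libraries, log2 fold changes were 3.17 (SE 0.65) for Junb, 3.01 (SE 0.59) for Egr1 and 3.00 (SE 0.68) for Fos. They were 1.69 (SE 0.34) for Ier2 and 1.20 (SE 0.25) for Jun. Each of these 5 calls held in all 8 fits with 1 library left out. Every such fit still holds sham libraries used in choosing the genes, so nothing is read from that stability either. The log2 fold change was -0.36 (SE 0.42) for Nr4a3 and 1.12 (SE 0.74) for Fosb, neither of them called. Groups did not overlap for 3 of the 10, Jun, Junb and Egr1, against 16% of all genes.

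**Figure D2:**
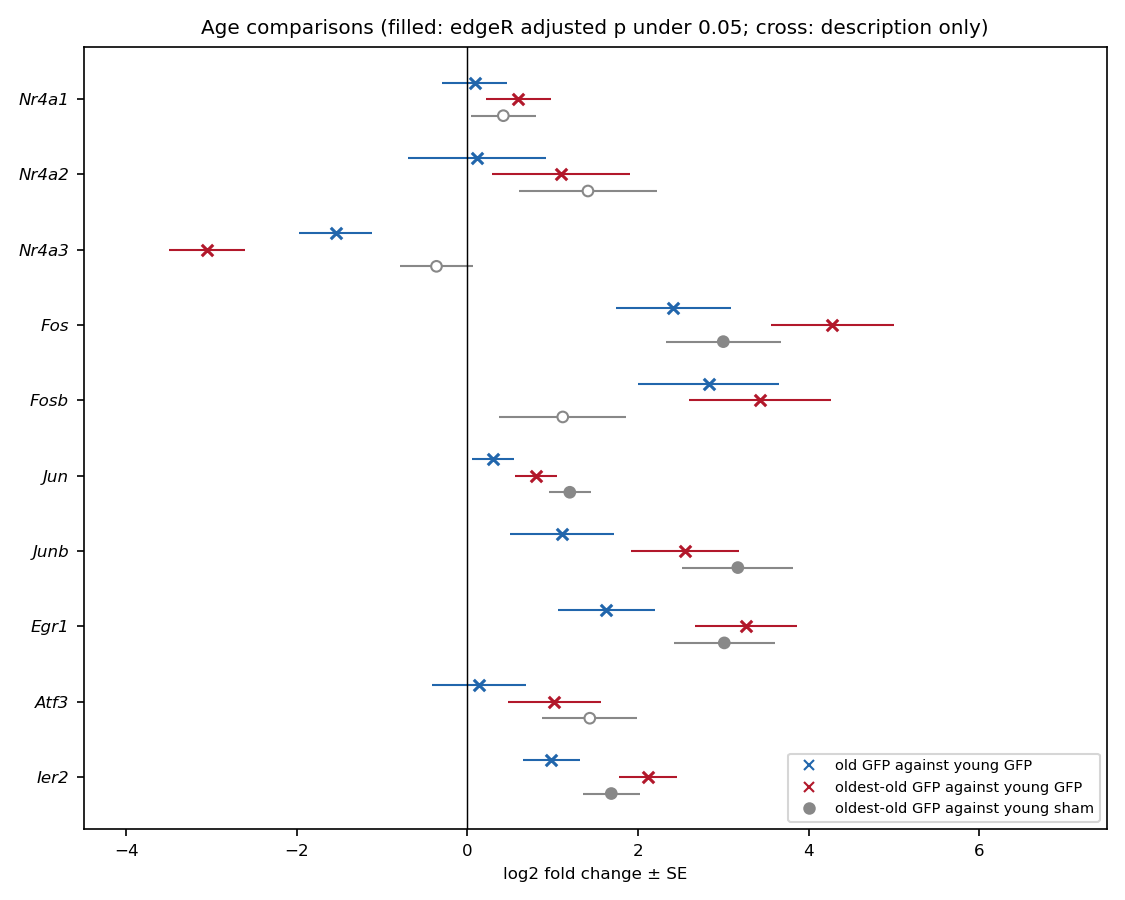
Log2 fold change of each gene with its standard error (bars) for old and oldest-old GFP against young GFP mice and oldest-old GFP against young sham mice. Crosses mark comparisons with young GFP mice, and filled points an edgeR adjusted p under 0.05 against young sham mice. Both young groups are sides of the contrast used in choosing the genes. Every comparison shown is therefore a description, and nothing is read from the fill. Nr4a3 lies at -3.05 for oldest-old GFP against young GFP mice and at -0.36 against young sham mice, and Fos at 4.28 and 3.00.

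In old GFP against young GFP mice the log2 fold change was 2.42 (SE 0.67) for Fos and -1.54 (SE 0.43) for Nr4a3, a description without a p. With 1 library left out in turn, Fos ranged from 1.88 to 2.83 and Nr4a3 from -1.87 to -1.26, and Fos was lowest without old GFP mouse 1. Without young GFP mice 1 and 3 they were 3.08 and -1.72, and without old GFP mice 1 and 4 2.29 and -1.25. Groups did not overlap for 3 of the 10, Nr4a3, Egr1 and Ier2, against 15.6% of all genes. The edgeR call took in 2 of the 10 and 4.7% of all genes, and again neither count is read further. Against young sham mice edgeR called 0 of the 10, where 3.67% of all genes were called, 4 had an unadjusted p under 0.05 (20.6% of all genes had), and DESeq2 called 1, Jun. Groups did not overlap there for 1, also Jun, against 15.5% of all genes. Nothing is read from these counts, since the sham libraries were used in choosing the genes. In oldest-old against old GFP mice edgeR called 0 of the 10 and 0.00562% of all genes, 5 of the 10 had an unadjusted p under 0.05 (12% of all genes had), and DESeq2 called 0. Jun was the 1 gene of the 10 whose groups did not overlap, against 5.65% of all genes. DESeq2 called 120 of 17803 genes there, and 1196 in old GFP against young sham mice. The 10 genes were chosen on levels in these libraries too, so nothing is read from these counts either.

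In the sham and GFP groups the genes tended to be high or low in the same mice. Young sham mouse 4 was the highest of its group for 10 of the 10 genes and old GFP mouse 4 the lowest of its group for 9. Oldest-old GFP mouse 4 was the lowest of its group for 8 and the highest for Nr4a3, and young GFP mouse 1 was the highest of its group for 7. In the AAV-Kl groups no mouse was the highest or the lowest of its group for more than 5 of the 10. Oldest-old AAV-Kl mouse 1 was the lowest for 5, and old AAV-Kl mouse 4 and oldest-old AAV-Kl mouse 3 were each the highest for 4 and the lowest for 4. Whether groups differ in this was not tested. Outside the 10, the genes most like their mean log2 CPM over the 24 libraries, which share groups, were Btg2 (Pearson r = 0.91), Snapc1 (0.88), Csrnp1 (0.87), Kcne4 (0.87), Ccn1 (0.86), Egr3 (0.86), Sertad1 (0.86) and Srrm4 (0.85). With group means removed they were Btg2 (0.85), Kcne4 (0.83), Egr3 (0.83), Arhgap12 (0.82), Relt (0.80), Apold1 (0.80), Klf2 (0.80) and Cdc42ep2 (0.79). Nr4a3 taken alone, a ranking made after its values were seen, was nearest to Usp2 (0.87), Noct (0.86), Ell2 (0.81) and Tsc22d3 (0.80), and with group means removed to Usp2 (0.84), Nctc1 (0.81), Rnf144b (0.81) and Fam107a (0.78).

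Other immediate early genes moved in the same comparisons. The lists here and below were chosen with earlier results of these data known. Their counts are therefore descriptions, and nothing is read from the shares set beside them. Of 58 listed, 56 were tested, and from young GFP to oldest-old GFP mice 22 rose and 2 fell by edgeR, with a median log2 fold change of 0.66 against 0.027 over all genes, of which 8.8% were called higher and 6.08% lower. The 6 largest log2 fold changes were those of Egr3, a relative of Egr1 (3.84, SE 0.92), the inducible cyclooxygenase Ptgs2 (2.85, SE 0.43), the chemokine Cxcl1 (2.65), the cytokine Il6 (2.57), the matricellular protein Ccn1 (2.32, SE 0.34) and the antiproliferative gene Btg2 (2.21). Without young GFP mice 1 and 3, 14 were called in place of 24. Egr3 was at 8.84, 32.6, 25.1 and 0.825 CPM in oldest-old GFP mice 1 to 4. Mouse 4 lay within the young GFP range of 0.2657 to 2.815 CPM. Btg2 in mouse 4, at 37.5 CPM, was also below young GFP mouse 1, at 40.96 CPM. Il6 was scarce, at 0.310 ± 0.133 CPM in oldest-old GFP mice (SD, n = 4). The genes that fell were Nfil3, a transcriptional repressor, by 1.33, and Crem, a cyclic AMP responsive factor, by 0.62. Against young sham mice 19 rose (7.07% of all genes were called higher), with the largest changes in Ptgs2 (2.705), Egr3 (2.69), Il6 (2.56), Btg2 (2.42), Ccn1 (2.25) and Cxcl1 (2.22), and 1, Nfil3, fell by 0.91. In old against young GFP mice, where 3.21% of all genes were called higher and 1.49% lower, Cxcl1 (2.29) and Plk2 (0.84) rose. Maff, Nfil3, Ccn2 and Crem fell there, the last 3 by 0.96, 0.77 and 0.48. Between old and oldest-old GFP mice edgeR called 0 of the 56, with 32 of 56 at an unadjusted p under 0.05 (12% of all genes), and DESeq2 called 7. Between old GFP and young sham mice edgeR called 0, with 12 of 56 at an unadjusted p under 0.05 (20.6% of all genes), and DESeq2 called 2. Of 17803 genes DESeq2 called 120 between old and oldest-old GFP mice and 1196 between old GFP and young sham mice. In young GFP against young sham mice Maff (1.44) and Crem (0.64) were called higher, where 0.281% of all genes were.

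Of 14 genes that respond to beta-adrenergic signals or exercise in muscle, 4 were called higher in young GFP than in young sham mice, where 0.281% of all genes were, Ucp3 (1.39), Ppargc1a (1.20), Crem (0.64) and Hk2 (0.57). None of these calls held in every fit with 1 library left out, and nothing is read from their share. Ppargc1a, a coactivator of mitochondrial biogenesis, was at 38.1, 42.3, 54.1 and 59.1 CPM in young sham and 57.8, 97.5, 146 and 145 CPM in young GFP mice. It was at 32.8, 54.98, 42.95 and 50.4 CPM in old GFP and 41.8, 38.9, 42.7 and 40.8 CPM in oldest-old GFP mice. Young GFP mouse 1 overlapped the sham mice, and all 4 young GFP mice were above both older GFP groups. From young GFP to oldest-old GFP mice Ppargc1a fell by 1.44, the uncoupling protein Ucp3 by 0.998 and Crem by 0.62, while Il6 and the activin antagonist Fst (1.35) rose. In old against young GFP mice they fell by 1.30, 0.97 and 0.48. Against young sham mice 3 rose in old GFP mice (2.25% of all genes were called higher), Hk2 (0.50), Lmcd1 (0.66) and Fgf21, and 4 in oldest-old GFP mice (7.07%), Hk2 (0.34), Lmcd1 (0.80), Fgf21 and Il6. Fgf21 was at 0 in all 4 sham libraries and no fold is given.

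**Figure D3:**
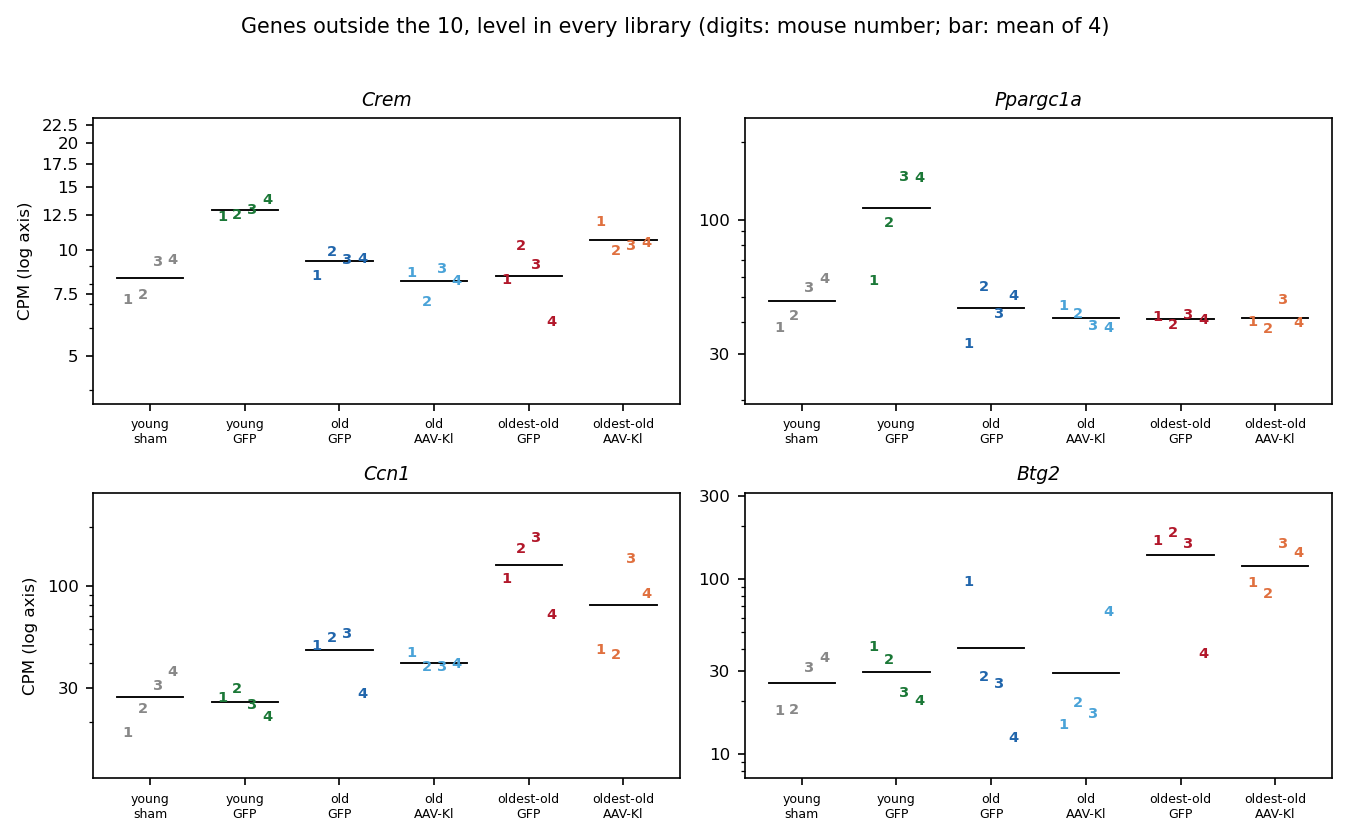
Level of Crem, Ppargc1a, Ccn1 and Btg2 in CPM on a log axis, by group, with each digit 1 library and each bar the mean of 4. Crem is between 12.4 and 13.9 CPM in young GFP mice, and Ccn1 between 71.1 and 176 CPM in oldest-old GFP mice.

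Of 13 glucose and glycogen genes linked to Nr4a1 in muscle, 5 fell from young GFP to oldest-old GFP mice, where 6.08% of all genes were called lower, Ppp1r3c (-1.16), Pgm1 (-0.65), Fbp2 (-0.55), Eno3 (-0.52) and Pygm (-0.40), and the branching enzyme Gbe1 rose (1.34). Ppp1r3c, a glycogen-targeting phosphatase subunit, fell by 0.94 in old against young GFP mice and was higher in young GFP than in young sham mice (1.14). In oldest-old GFP against young sham mice Gbe1 (1.36) and Gys1 (0.35) rose. For the lists that follow, 0.281% of all genes were called higher and 0.191% lower in young GFP against young sham mice. Against young GFP mice 3.21% were called higher and 1.49% lower in old, and 8.8% and 6.08% in oldest-old GFP mice. Against young sham mice the shares were 2.25% and 1.42% in old, and 7.07% and 4.52% in oldest-old GFP mice. Among upstream regulators, Hdac5 (0.43) rose and Mapk14 fell by 0.27 from young GFP to oldest-old GFP mice. Against young sham mice Elk4 (0.62), Hdac5 (0.32) and Mef2a (0.31) rose and Elk1 fell by 0.30 in the oldest-old, and Mef2a (0.37) rose and Elk1 fell by 0.40 in old GFP mice. Of 13 glucocorticoid targets, Mt2 (2.73) and Tsc22d3 (0.82) were higher in young GFP than in young sham mice, and Mt2 (-2.10) and Tsc22d3 (-0.65) fell in old GFP against young GFP mice. In oldest-old against young GFP mice Cdkn1a (1.12) and Fbxo32 (0.82) rose and Tsc22d3 (-0.55) fell, and against young sham mice Mt2 (2.21), Cdkn1a (1.49), Fbxo32 (1.15) and Trim63 (0.92) rose. Of 15 clock genes, Bhlhe41 was higher in young GFP than in young sham mice (0.91), Ciart (1.38), Bhlhe41 (0.84) and Cry2 (0.82) rose in old GFP and Ciart (1.53) and Cry2 (1.06) in oldest-old GFP against young sham mice. Of 11 heat-inducible chaperones, 5 fell in oldest-old against young GFP mice (6.08% of all genes were called lower), Hspa8 (-0.44), Dnaja1 (-0.40), Hsph1 (-0.39), Hspe1 (-0.36) and Hspd1 (-0.24), and Hspe1 (-0.24) in old against young GFP mice. Against young sham mice Hspb1 (0.64) and Bag3 (0.45) rose and Dnaja1 fell by 0.49 in the oldest-old, and Bag3 rose in old GFP mice (0.38).

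With each library left out in turn, 28 of 44 calls of list genes in oldest-old GFP against young GFP mice held in all 8 fits, the other immediate early genes included, and 20 of 39 against young sham mice. In old GFP mice 3 of 12 held against young GFP and 2 of 9 against young sham mice, and between young GFP and young sham mice 0 of 9. Oldest-old GFP mouse 4 stood apart from the other 3 over the genes tested, with a mean chi-square per gene between 2 libraries of 132, 147 and 138 against mice 1 to 3, which had 13.8 to 38.9 among themselves (counting noise alone gives about 1). Trim63 was at 205, 163, 217 and 545 CPM in oldest-old GFP mice 1 to 4, Fbxo32 at 470, 410, 538 and 1167 CPM, Gbe1 at 112, 88.9, 88.1 and 246 CPM and Pgm1 at 891, 1131, 1137 and 495 CPM. Without mouse 4, Fbp2, Pygm, Hsph1, Hspd1, Fbxo32 and Cdkn1a were not called against young GFP mice, nor Mt2, Trim63, Elk1, Elk4, Hdac5, Hk2, Gys1 and Hspb1 against young sham mice.

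AAV-Kl against GFP mice gave no edgeR call among the 10 genes at either age. In old mice all 10 log2 fold changes were negative, with a median of -0.44 against 0.008 over all genes. Fos was at 17.3, 17.8, 24.2 and 21.9 CPM in old AAV-Kl mice, within the range of old GFP mice (log2 fold change -1.22, SE 0.64). By edgeR 0 of the 10 and 0% of all genes were called, 0 of the 10 had an unadjusted p under 0.05 (2.15% of all genes had), and DESeq2 called 0. Groups overlapped for all 10, while 1.68% of all genes did not overlap. Without old GFP mouse 1 the log2 fold changes of Nr4a1, Nr4a2 and Junb were 0.058, 0.60 and 0.41. In oldest-old mice 5 of the 10 were higher and 5 lower, with a median of 0.048. Nr4a3, whose values were given above, had 1.73 (SE 0.43, adjusted p = 0.273) by edgeR and an adjusted p of 0.0495 by DESeq2. It was the 1 gene of the 10 whose groups did not overlap, against 2.65% of all genes. By edgeR 0 of the 10 and 0.0112% of all genes were called. An unadjusted p was under 0.05 for 3 of the 10 and for 8.08% of all genes. DESeq2 called 1 of the 10 and 26 of 17803 genes. The 10 genes were chosen on levels in these libraries, so nothing is read from these counts or p at either age.

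Atf3 was at 23.5, 31.8, 23.95 and 10.6 CPM in oldest-old GFP and 26.1, 47.9, 179 and 47.1 CPM in oldest-old AAV-Kl mice. AAV-Kl mouse 3 was the highest of the series and the groups overlapped, with an edgeR log2 fold change of 1.74 (SE 0.55, adjusted p = 0.420) and 0.85 without mouse 3. That mouse also had the highest Jun, 291 CPM, and Hspa1a at 45.8 CPM, while the other 3 of its group had 4.67, 9.39 and 6.70 CPM. Without it the log2 fold change of Jun was -0.36 in place of 0.14. Ier2 was at 9.58, 9.85, 14.5 and 18.5 CPM in oldest-old AAV-Kl mice, between oldest-old GFP mouse 4 and mice 1 to 3. Its edgeR log2 fold change was -1.003 (SE 0.33, adjusted p = 0.449). The difference of the Klotho responses between the ages was called by edgeR for 0 of the 10 and 0.00562% of all genes, 2 of the 10 had an unadjusted p under 0.05 (5.76% of all genes had), Nr4a3 (2.47, SE 0.60) and Atf3 (2.37, SE 0.78), and DESeq2 called 0. For the 10 genes nothing is read from these counts or p, since they were chosen on levels in these libraries. Of the 56 other immediate early genes edgeR called 0 in old mice, in oldest-old mice and in the difference. Of these, 1, 16 and 10 had an unadjusted p under 0.05, where 2.15%, 8.08% and 5.76% of all genes had, and DESeq2 called 0, 1 and 0. Of 17803 genes DESeq2 called 0, 26 and 1.

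**Figure D4:**
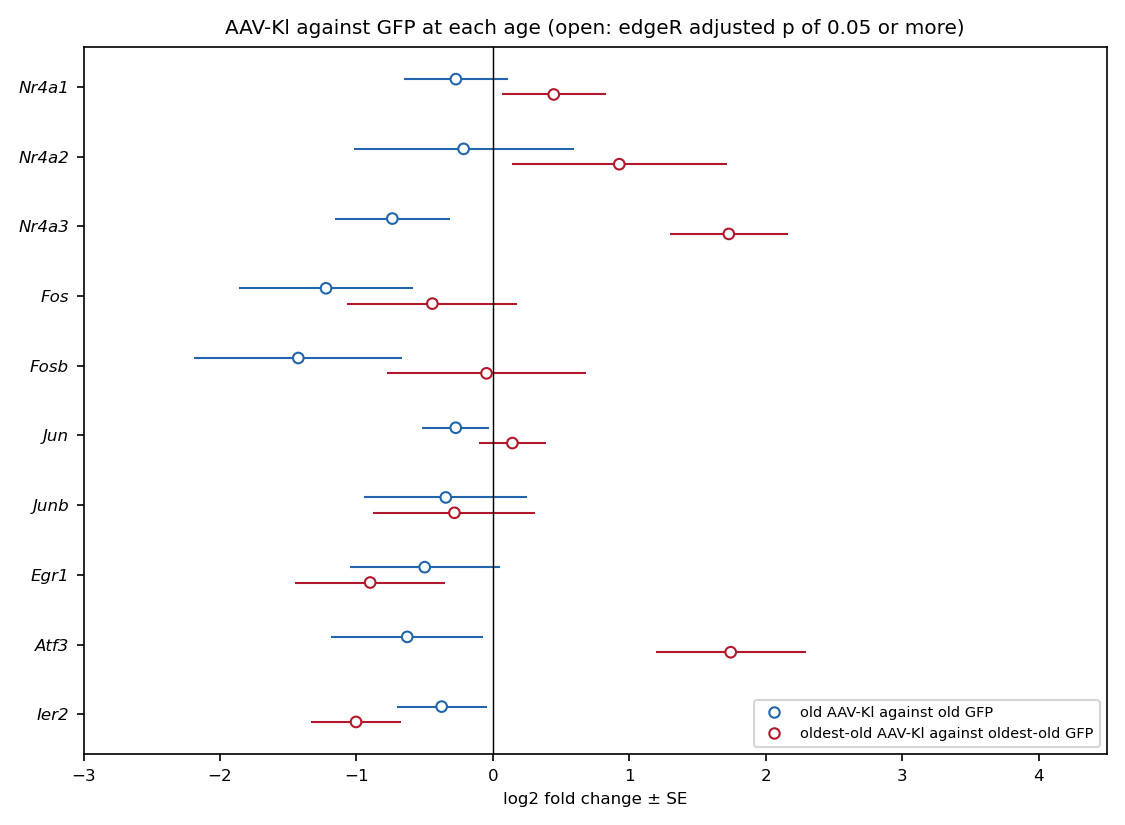
Log2 fold change of each gene with its standard error (bars) for AAV-Kl against GFP mice, at both ages, with open points since no edgeR adjusted p was under 0.05. All 10 lie below 0 in old mice, and Nr4a3 (1.73) and Atf3 (1.74) lie highest in oldest-old mice.

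Markers of other cells differed between the same groups. From young GFP to oldest-old GFP mice, where 8.8% of all genes were called higher and 6.08% lower, 5 of 5 erythroid markers rose, most abundant Hbb-bs, with sums of 63.1, 64.1, 71.1 and 101 CPM in young GFP and 603, 116, 90.1 and 657 CPM in oldest-old GFP mice. Mice 1 and 4 were high, while Fos was high in mice 1 to 3. Of 6 neutrophil markers, most abundant Mmp9, 5 were tested and 4 rose, with sums of 2.08, 2.99, 1.72 and 1.38 CPM in young GFP and 10.2, 4.05, 5.52 and 16.1 CPM in oldest-old GFP mice. Of 6 keratinocyte markers, most abundant Krt10, 4 fell, with sums of 108, 1.38, 328 and 0.942 CPM in young GFP and 1.25, 0.941, 5.63 and 1.08 CPM in oldest-old GFP mice. Young GFP mice 1 and 3 were high in these, while Nr4a3 was high in all 4. In old against young GFP mice (3.21% of all genes called higher) 6 of 6 liver markers rose, most abundant Alb, with sums of 0.187, 1.23, 0.671 and 0.411 CPM in young GFP and 818, 3.39, 1.02 and 77.4 CPM in old GFP mice. Old GFP mice 1 and 4 were high, of which mouse 1 was the highest and mouse 4 the lowest of its group for Fos.

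Between young GFP and oldest-old GFP mice 2 of 6 endothelial markers rose, Cldn5 (1.43) and Egfl7 (0.62), as did Cspg4 among 6 of smooth muscle and pericytes (0.58), and Col1a1 fell by 1.77 among 6 of fibroblasts. Their sums in oldest-old GFP mice were 302, 267, 286 and 292 CPM, 293, 337, 370 and 360 CPM and 614, 656, 708 and 496 CPM, against 236, 242, 227 and 216 CPM, 351, 373, 312 and 350 CPM and 763, 924, 642 and 663 CPM in young GFP mice. Of 4 satellite cell markers, most abundant Myod1, Myod1 rose (1.68) and Chrdl2 fell by 0.85, with sums of 23.4, 14.8, 17.3 and 14.9 CPM in young GFP and 48.1, 33.8, 44.5 and 41.3 CPM in oldest-old GFP mice, and of 8 muscle fibre markers Myh7 (1.75) and Myh1 (0.64) rose and Myh4 fell by 0.33. In old against young GFP mice Myod1 rose (1.36). In oldest-old GFP against young sham mice (7.07% of all genes called higher, 4.52% lower) 3 of the 5 tested neutrophil markers, Myh7 (1.43) and Myh1 (0.65) rose, with young sham neutrophil sums of 1.10, 4.92, 5.27 and 4.30 CPM. Col1a1, Col3a1, the T cell marker Cd8a, the Schwann cell marker Pmp22 and the satellite cell marker Pax7 fell there by 2.12, 1.90, 4.74, 0.75 and 0.77, and Col1a1 fell by 1.501 in old GFP against young sham mice. Summed macrophage markers, 6 with Lyz2 the most abundant, were at 78.1, 148, 103 and 88.5 CPM in young sham, 49.6, 77.4, 63.2 and 46.03 CPM in young GFP and 126, 84, 103 and 88.96 CPM in oldest-old GFP mice. The young GFP mice were below all mice of both other groups, though edgeR called none of the 6 in either comparison. DESeq2 called 1, in oldest-old against young GFP mice, where it called 3100 of 17803 genes. The young GFP mice, whose Nr4a3 was high, were also below the young sham mice in summed satellite cell (46.4, 38.4, 36.6 and 37.5 CPM in sham) and endothelial markers (259, 274, 276 and 279 CPM in sham). With each library left out in turn, 6 of 22 marker calls in oldest-old GFP against young GFP mice held in all 8 fits, 4 of 10 against young sham mice, 0 of 7 in old against young GFP mice and 0 of 1 in old GFP against young sham mice. None of the erythroid, neutrophil, keratinocyte or liver calls did. No marker on these lists was at 0 in all 24 libraries. Their part in the results was not tested, and in bulk samples fewer cells of a type and less RNA per cell cannot be told apart.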

How the data were processed

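The authors aligned reads to the mouse genome mm10 with STAR and deposited gene counts, not normalized, for each of 24 libraries, and the column counted without strand was used. Reads on genes were 74.7% to 77.0% of each library, and rows for the other reads were left out. Symbols came from GENCODE by Ensembl identifier without version (55144 of 55385 matched). Counts of all 6 groups were fitted together with edgeR 4.0.16 in R 4.3.3 (TMM, its filter on low counts, quasi-likelihood test, Benjamini-Hochberg adjustment, calls at an adjusted p under 0.05), in 9 comparisons. Members and lists were chosen with earlier results of these data known. Named are the 10 genes, up to 6 called genes of the largest absolute log2 fold change per list and comparison, the 8 genes outside the 10 with the highest correlation to their mean log2 CPM, with and without group means, and called cell type markers, some only as counts. Genes like Nr4a3 and the Hspa1a levels were chosen after values were seen. Alternatives were DESeq2 1.42.0, its size factors, no filter, fewer groups, a replicate block, the summed strand columns, and libraries left out singly. Robust estimates and pairs of libraries left out were added after seeing the data. A called gene of 1 list is not reported here.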

Additional observations from a re-analysis of the deposited data

Results flagged for a closer look

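In 12 of the 60 groups of 4 values (10 genes in 6 groups), 1 mouse stood far from the other 3, with a gap to its nearest neighbour above the 95% critical share of the group's range. Chance flags about 1 in 20 groups only where values are normally distributed, which was not checked for these CPM. The 10 genes also tended to vary together in several groups, so the 60 are not independent. The count of 12 is therefore not read as an excess. Old AAV-Kl mouse 4 was the highest of its group for Nr4a1 at 371 CPM, a share of 0.8707, Nr4a2 at 27.5 CPM, a share of 0.8368, Junb at 89.5 CPM, a share of 0.8773 and Atf3 at 15.1 CPM, a share of 0.9034. For Nr4a3, young sham mouse 4 was the highest of its group at 44.03 CPM, with a share of 0.8432. For Nr4a3, young GFP mouse 4 was the highest of its group at 229 CPM, with a share of 0.8647. For Nr4a3, oldest-old AAV-Kl mouse 4 was the highest of its group at 96.7 CPM, with a share of 0.9184. Oldest-old GFP mouse 4 was the lowest of its group for Fos at 29.2 CPM, a share of 0.8979 and Fosb at 4.35 CPM, a share of 0.8962. Oldest-old AAV-Kl mouse 3 was the highest of its group for Jun at 291 CPM, a share of 0.8527 and Atf3 at 179 CPM, a share of 0.8574. For Atf3, young GFP mouse 3 was the highest of its group at 16.97 CPM, with a share of 0.8464.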

How the results depend on the processing

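Fits with DESeq2 size factors, the summed strand columns or robust spread estimates, the last added after seeing the data, moved no count by over 1.5 times. Values below are those that moved, each beside the value reported. For the 10 genes, comparisons with young GFP or young sham mice are descriptions, and nothing is read from their counts called in any comparison. The cause was not tested. With DESeq2 in place of edgeR values moved as follows. Genes called numbered 284 in place of 84 (young GFP against young sham), 120 in place of 1 (oldest-old GFP against old GFP), 1196 in place of 653 (old GFP against young sham) and 26 in place of 2 (oldest-old AAV-Kl against oldest-old GFP). Of the other immediate early genes, the number called was 4 in place of 2 (young GFP against young sham), 7 in place of 0 (oldest-old GFP against old GFP), 2 in place of 0 (old GFP against young sham) and 1 in place of 0 (oldest-old AAV-Kl against oldest-old GFP). Of the 10 genes, the number called was 4 in place of 2 (old GFP against young GFP), 1 in place of 0 (old GFP against young sham) and 1 in place of 0 (oldest-old AAV-Kl against oldest-old GFP). With no filter on low counts values moved as follows. Genes called numbered 553 in place of 837 (old GFP against young GFP), 1755 in place of 2649 (oldest-old GFP against young GFP), 0 in place of 1 (oldest-old GFP against old GFP), 422 in place of 653 (old GFP against young sham) and 1339 in place of 2064 (oldest-old GFP against young sham). With only the compared groups in the fit values moved as follows. Genes called numbered 174 in place of 84 (young GFP against young sham), 1275 in place of 837 (old GFP against young GFP), 1249 in place of 2649 (oldest-old GFP against young GFP), 0 in place of 1 (oldest-old GFP against old GFP), 1367 in place of 653 (old GFP against young sham), 845 in place of 2064 (oldest-old GFP against young sham), 0 in place of 2 (oldest-old AAV-Kl against oldest-old GFP) and 0 in place of 1 (Klotho response, oldest-old minus old). Of the 10 genes, the number called was 5 in place of 2 (old GFP against young GFP) and 1 in place of 0 (old GFP against young sham). Of the other immediate early genes, the number called was 11 in place of 6 (old GFP against young GFP), 3 in place of 0 (old GFP against young sham) and 12 in place of 20 (oldest-old GFP against young sham). Without the sham libraries values moved as follows. Genes called numbered 0 in place of 1 (oldest-old GFP against old GFP) and 0 in place of 1 (Klotho response, oldest-old minus old). In old GFP against young GFP mice Nr4a3 was no longer called, with a log2 fold change of -1.55 in place of -1.54. Fosb, at 2.83 in both fits, was called there without the sham libraries but not in the fit reported. DESeq2 and the fit with only the compared groups also called Fosb there. Without young GFP mice 1 and 3, chosen after seeing the data, values moved as follows. Genes called numbered 27 in place of 84 (young GFP against young sham), 143 in place of 837 (old GFP against young GFP) and 874 in place of 2649 (oldest-old GFP against young GFP). Of the other immediate early genes, the number called was 0 in place of 2 (young GFP against young sham), 0 in place of 6 (old GFP against young GFP) and 14 in place of 24 (oldest-old GFP against young GFP). The Nr4a2 log2 fold change was -0.033 in place of 0.31 (young GFP against young sham). Of the 10 genes, the number called was 0 in place of 2 (old GFP against young GFP). Without old GFP mice 1 and 4, also chosen after seeing the data, values moved as follows. Of the 10 genes, the number called was 0 in place of 2 (old GFP against young GFP). Genes called numbered 268 in place of 837 (old GFP against young GFP), 0 in place of 1 (oldest-old GFP against old GFP) and 328 in place of 653 (old GFP against young sham). Of the other immediate early genes, the number called was 1 in place of 6 (old GFP against young GFP). The Nr4a1 log2 fold change was -0.047 in place of 0.087 (old GFP against young GFP). The Nr4a2 log2 fold change was -0.45 in place of 0.12 (old GFP against young GFP), -0.12 in place of 0.43 (old GFP against young sham) and 0.34 in place of -0.21 (old AAV-Kl against old GFP). The Junb log2 fold change was 0.10 in place of -0.35 (old AAV-Kl against old GFP) and -0.38 in place of 0.063 (Klotho response, oldest-old minus old).

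With each library of the compared groups left out in turn, ranges were as follows. Of all genes tested, the number called ranged from 1 to 114 (young GFP against young sham), 366 to 679 (old GFP against young GFP), 1674 to 2755 (oldest-old GFP against young GFP), 0 to 3 (oldest-old GFP against old GFP), 279 to 759 (old GFP against young sham), 1040 to 2251 (oldest-old GFP against young sham), 1 to 4 (oldest-old AAV-Kl against oldest-old GFP) and 0 to 1 (Klotho response, oldest-old minus old). Of the other immediate early genes, the number called ranged from 0 to 3 (young GFP against young sham), 2 to 5 (old GFP against young GFP), 18 to 23 (oldest-old GFP against young GFP), 0 to 1 (oldest-old GFP against old GFP), 12 to 20 (oldest-old GFP against young sham) and 0 to 1 (oldest-old AAV-Kl against oldest-old GFP). The median log2 fold change of the 10 genes ranged from -0.28 to 0.34 (young GFP against young sham), 0.30 to 0.90 (old GFP against young GFP), 1.44 to 1.96 (oldest-old GFP against young GFP), 0.61 to 1.25 (oldest-old GFP against old GFP), 0.54 to 1.26 (old GFP against young sham), 1.24 to 1.91 (oldest-old GFP against young sham), -0.87 to -0.26 (old AAV-Kl against old GFP), -0.13 to 0.20 (oldest-old AAV-Kl against oldest-old GFP) and 0.36 to 1.01 (Klotho response, oldest-old minus old). Of the 10 genes, the number called ranged from 0 to 2 (old GFP against young GFP), 6 to 7 (oldest-old GFP against young GFP), 0 to 1 (old GFP against young sham) and 5 to 6 (oldest-old GFP against young sham). Log2 fold changes that turned sign in at least 1 of these fits, none of them called, ranged from -0.60 to 0.20 for Egr1 (young GFP against young sham), -0.20 to 0.59 for Nr4a2 (young GFP against young sham), -0.26 to 0.28 for Nr4a1 (old GFP against young GFP), -0.72 to 0.64 for Nr4a2 (old GFP against young GFP), -0.12 to 0.40 for Atf3 (old GFP against young GFP), -0.38 to 0.72 for Nr4a2 (old GFP against young sham), -0.64 to 0.058 for Nr4a1 (old AAV-Kl against old GFP), -1.65 to 0.60 for Nr4a2 (old AAV-Kl against old GFP), -1.08 to 0.41 for Junb (old AAV-Kl against old GFP), -0.69 to 0.80 for Junb (Klotho response, oldest-old minus old), -0.41 to 0.12 for Nr4a1 (old GFP against young sham), -0.57 to 0.14 for Fosb (oldest-old AAV-Kl against oldest-old GFP), -0.36 to 0.31 for Jun (oldest-old AAV-Kl against oldest-old GFP) and -0.087 to 0.59 for Jun (Klotho response, oldest-old minus old). Other printed values that moved by over 1.5 times ranged from 0.33 to 0.85 for Nr4a1 (oldest-old GFP against young GFP), 0.66 to 1.63 for Nr4a2 (oldest-old GFP against young GFP), -0.83 to -0.051 for Nr4a3 (oldest-old GFP against young sham), 0.74 to 2.07 for Fosb (oldest-old GFP against young sham), -1.55 to -0.70 for Fos (old AAV-Kl against old GFP) and 1.47 to 2.90 for Atf3 (Klotho response, oldest-old minus old).

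The labels number mice 1 to 4 in each group, and nothing says that a number is shared. Deviations of same-numbered mice correlated between -0.53 and 0.20 over 8 comparisons, both extremes in young GFP against young sham mice, and in each of the 8 at least 1 pair was below 0, so the numbers were not used as pairs. With the number as a replicate block these values moved. Of the 10 genes, the number called was 1 in place of 2 (old GFP against young GFP). Genes called numbered 0 in place of 1 (oldest-old GFP against old GFP) and 0 in place of 1 (Klotho response, oldest-old minus old). The Junb log2 fold change was -0.22 in place of 0.063 (Klotho response, oldest-old minus old).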
